A study of Mus musculus with 17 samples.

Results

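The subject is the wild-type (WT) arm of a time course of mouse embryonic stem cells: 4 libraries with replicate number 1 set against 4 libraries with replicate number 2, of 17 libraries in the series. Members were chosen by their labels as WT libraries and were paired by day, so that each pair has 1 replicate 1 library and 1 replicate 2 library of the same day. That the replicate number marks a culture series running through all days is not stated in the labels; it was inferred from the counts of these libraries. The comparison of replicate 1 with replicate 2 is therefore a description of 1 library against 1 library at each day, with no test.

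WT cells were E14, a mouse embryonic stem cell line. The series also has RNAPII-mut cells, of the slow/slow genotype, which carry a slowly elongating RNA polymerase II according to the series title. All groups grew without feeder cells on gelatine, in medium with 10% serum and 1000 U/mL LIF, and received the inhibitor pair called 2i for 0, 1, 2 or 7 days. The pair consists of 1 µM PD0325901, which blocks the kinase MEK, and 3 µM CHIR99021, which blocks the kinase GSK3. WT cells have 2 libraries at each of the 4 days, and RNAPII-mut cells have 9 libraries in all. Library totals were between 49640574 and 56138844 counts in WT, and 15365 of 20621 genes passed the filter on low counts. Levels are CPM, the count of a gene relative to the library total after TMM normalisation; 3 counts correspond to between 0.0502 and 0.0589 CPM in a WT library. Nothing in the labels says that libraries of a group came from separate cultures, so the p-values below are set against the spread among these libraries only.

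Cultures of embryonic stem cells in serum and LIF are mixtures. Most cells hold the pluripotency network of Pou5f1, Sox2 and Nanog, while some drift towards the epiblast, towards mesoderm and its derivatives, or towards primitive endoderm, the extraembryonic lineage that lays down basement membrane under Gata6, Gata4 and Sox17. Inhibition of MEK removes the FGF and ERK signal on which much of that drift depends, and inhibition of GSK3 stabilises beta-catenin, so 2i is known for holding cells in the naive state and for depleting differentiated cells. In bulk RNA, fewer cells of a type and less RNA per cell cannot be told apart.

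The defining markers of embryonic stem cells were high in all 8 libraries. Pou5f1, the core pluripotency factor, lay at 1340, 949, 1200 and 1770 CPM in replicate 1 at days 0, 1, 2 and 7, and at 1880, 2290, 2420 and 2240 CPM in replicate 2. Sox2, its partner, lay between 430 and 673 CPM over the 8 libraries. Nanog, the third factor of the network, lay between 282 and 826 CPM. Replicate 1 was below replicate 2 for Pou5f1 at every day.

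The number of genes more than 4-fold apart changed with time in 2i, and differently for each direction. Differences are of log2(CPM + 0.5), replicate 1 minus replicate 2. At day 0, 323 genes (2.1% of those tested) were more than 4-fold higher in replicate 1, and 140 (0.911%) were more than 4-fold lower. At day 1 the counts were 323 (2.1%) higher and 162 (1.05%) lower. At day 2 they were 100 (0.651%) higher and 157 (1.02%) lower, and at day 7 they were 22 (0.143%) higher and 89 (0.579%) lower. Genes high in replicate 1 thus made up most of the distance at days 0 and 1, and genes high in replicate 2 made up most of it at days 2 and 7. A pseudocount of 2 CPM in place of 0.5 shrinks the differences of genes of low level. With it the order of the days was kept for genes higher in replicate 1, with 173, 172, 34 and 10 genes. For genes lower in replicate 1 the order was not kept: 58, 51, 46 and 29 passed, with the most at day 0 and not at day 1.

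**Figure D1:**
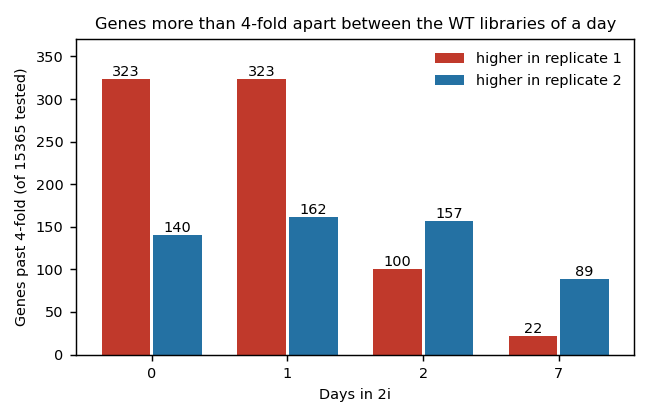
Number of genes, on the y axis, past 4-fold between the WT libraries of each day (x axis, days in 2i), of 15365 tested. Red bars are genes higher in replicate 1, and blue bars are genes higher in replicate 2; the red bars shrink to 22 at day 7 while the blue bars shrink to 89.

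Few genes kept their difference throughout. Of the 323 genes past 4-fold higher in replicate 1 at day 0, 197 (61%) were so at day 1, 52 (16.1%) at day 2 and 10 (3.1%) at day 7. Of the 140 genes past 4-fold lower at day 0, 74 (52.9%) were so at day 1, 54 (38.6%) at day 2 and 24 (17.1%) at day 7. At all 4 days, 4 genes (0.026%) were higher and 19 (0.124%) were lower in replicate 1. Across all genes tested the libraries of a pair correlated at Pearson's r of 0.959, 0.953, 0.965 and 0.978 at days 0, 1, 2 and 7, over genes, which are not independent replicates.

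Change over time was tested in each series by a slope on log2(day + 1), so that day 7 lies 3 units from day 0, with edgeR's quasi-likelihood test over all genes. The spread in these slope tests was the scatter of the libraries about a straight line per series. A curved course, such as a peak at day 1, therefore also counted as spread. In replicate 1, 1113 genes (7.24%) rose and 1053 (6.85%) fell at adjusted p under 0.05. These are 14.1% of genes in all. In replicate 2, 358 (2.33%) rose and 524 (3.41%) fell, or 5.74% in all. The series were inferred from these libraries and the lists were chosen with the fading known, so these p-values are not independent evidence of it. Each slope rests on 4 libraries without repeats: without the replicate 1 library of day 7 the replicate 1 count of 2166 became 15, and without that of day 0 it became 1291. Without the replicate 2 library of day 0 the replicate 2 count of 882 became 0, and without those of day 1 or day 2 it became 427 or 414; without the replicate 1 library of day 2 it became 483. Counts of list members below depend on the same libraries: without the replicate 1 library of day 7, at most 2 members of any list passed for replicate 1, and without the replicate 2 library of day 0, 0 members of any list passed for replicate 2. The difference between the slopes passed for 1 gene (0.00651%), described below, and 1669 genes had an unadjusted p under 0.05. Apart from that gene, the sentences below give each series' own slope and do not show that the slopes differ.

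Replicate 1 held transcripts of contractile cells at days 0 and 1. The 14 smooth muscle genes in the table summed to 1820, 2300, 612 and 297 CPM in replicate 1 at days 0, 1, 2 and 7, against 210, 340, 339 and 372 CPM in replicate 2 and 250 to 346 CPM in the 9 RNAPII-mut libraries. Replicate 1 was thus the high series at days 0, 1 and 2, and it fell among the other libraries at day 7. All 14 passed the filter; 8 were past 4-fold higher in replicate 1 at day 0, 7 at day 1, 4 at day 2 and 0 at day 7. Their median log2 difference was 2.17, 2.00, 0.52 and -0.25, against -0.01, -0.02, -0.03 and -0.03 over all genes tested. In the slope over days 8 of 14 fell and 0 rose in replicate 1, and 0 passed in either direction in replicate 2.

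Acta2, smooth muscle alpha-actin (chr19:34241090-34255590 on mm10), had 151, 327, 41.5 and 0.555 CPM in replicate 1 at days 0, 1, 2 and 7, against 0.101, 0.118, 0 and 0.262 CPM in replicate 2. It was far above the RNAPII-mut range of 0.0363 to 1.95 CPM at the first 3 of these days, and inside that range at day 7. The replicate 1 slope of Acta2 was -3.25 ± 0.89 (SE, log2 per unit; edgeR adjusted p = 0.038). Tagln, which encodes the actin-binding protein transgelin, had 329, 508, 54.6 and 1.22 CPM in replicate 1, against 1.25, 2.16, 0.56 and 1.31 CPM in replicate 2. Both genes were at their highest at day 1, and at their lowest at day 7. The Tagln slope in replicate 1 was -3.24 ± 0.76 (edgeR adjusted p = 0.0221).

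Tpm1, a tropomyosin that stiffens actin filaments, was the most abundant of the list, at 737, 714, 207 and 73.8 CPM in replicate 1 and 64.8, 90.6, 96.9 and 97.4 CPM in replicate 2. Its replicate 1 slope was -1.24 ± 0.19 (edgeR adjusted p = 0.0049). Cnn2, a calponin, had 239, 228, 96.1 and 26.7 CPM in replicate 1 and 29.2, 40.4, 37.0 and 33.7 CPM in replicate 2. Neither gene overlapped between series before day 7, when replicate 1 was the lower. Myl9, a regulatory myosin light chain, had 20.1, 19, 2.68 and 0.111 CPM in replicate 1 and 1.15, 1.81, 0.0746 and 1.99 CPM in replicate 2. The actins of striated muscle were present too: Acta1 had 17.5, 49.8, 7.27 and 0.222 CPM in replicate 1 and at most 0.51 CPM in replicate 2, and Actc1 had 3.89, 23.3, 3.01 and 0.037 CPM in replicate 1 and 0 counts in each replicate 2 library. Of 20 cardiac and skeletal muscle genes, 2, 2, 2 and 0 were past 4-fold higher in replicate 1 over the 4 days. In the same order, 0, 1, 0 and 2 were past 4-fold lower. Their median log2 difference was 0.09, -0.08, -0.01 and -0.26, so the list as a whole showed no excess in replicate 1. Markers of differentiated smooth muscle differed in level. Cnn1, a calponin of such cells, had 17.9, 50.3, 6.18 and 0.259 CPM in replicate 1 and 2.54, 1.45, 0.709 and 0.412 CPM in replicate 2. Myh11, the smooth muscle myosin heavy chain, was low throughout, between 0.37 and 0.808 CPM in replicate 1 and between 0.412 and 0.677 CPM in replicate 2.

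**Figure D2:**
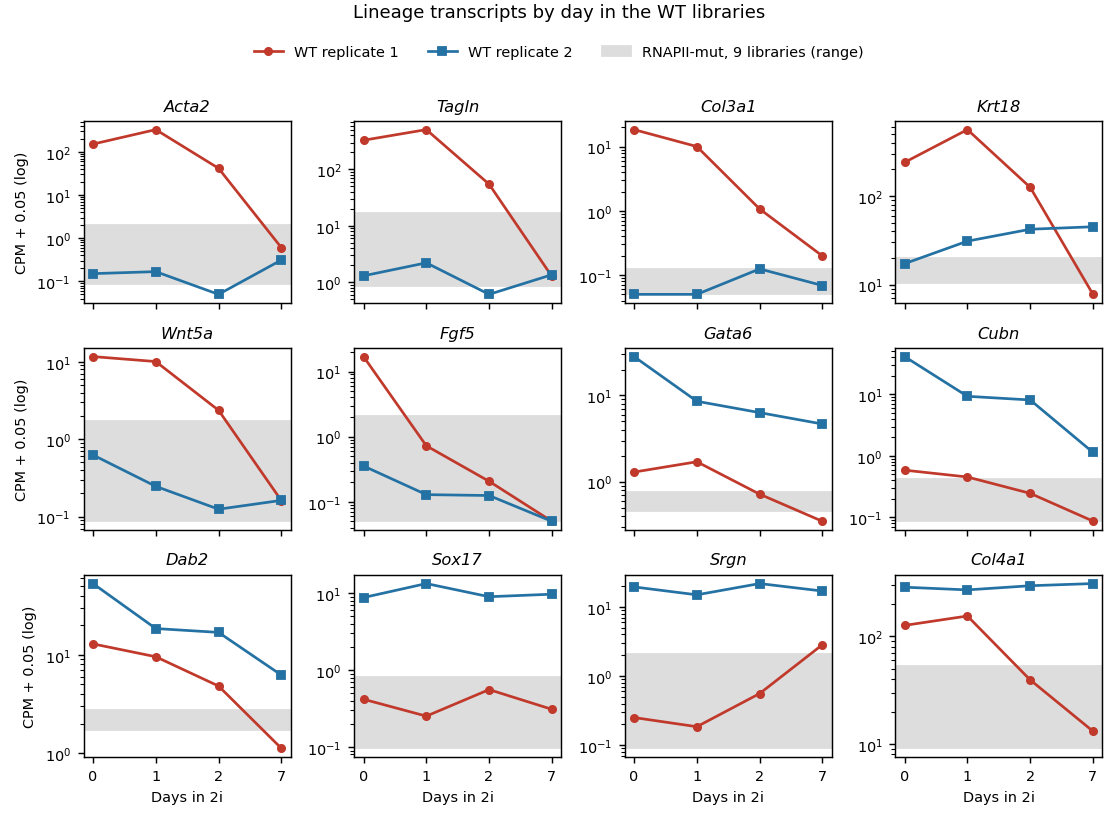
Levels of 12 lineage genes on a log axis (CPM + 0.05, y) by days in 2i (x), with replicate 1 in red, replicate 2 in blue and the range of the 9 RNAPII-mut libraries in grey. The first 6 panels are higher in replicate 1 at day 0 and approach or cross replicate 2 by day 7; in the last 6 panels replicate 2 is above replicate 1 at every day.

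Actin and myosin genes of muscle are classic targets of serum response factor, which binds the CArG box. Of the 12 smooth muscle and 17 striated muscle genes with an entry in the RefSeq promoter table (GRCm38.p6), 2 (16.7%) and 4 (23.5%) held a CArG box in the 250 bases before the start, against 1.62% of all 27025 symbols; the box reads the same on both strands. Myl7 and Myl3 also held a box, and they did not share the course of the genes described above. Myl7 had 139, 112, 129 and 548 counts in replicate 1 and 396, 234, 424 and 504 counts in replicate 2. Myl3 had 20, 56, 14 and 10 counts in replicate 1 and 8, 10, 40 and 137 counts in replicate 2. The stretches around the box are printed for the 4 genes described above, 5′ to 3′ on the gene's strand, with the box in capitals.
Acta1, chr8:123894794-123894893, minus strand: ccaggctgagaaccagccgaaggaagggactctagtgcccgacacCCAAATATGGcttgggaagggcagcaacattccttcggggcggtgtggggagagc
Actc1, chr2:114052876-114052967, minus strand: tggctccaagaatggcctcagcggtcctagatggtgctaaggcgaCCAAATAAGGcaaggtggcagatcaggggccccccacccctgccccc
Cnn2, chr10:79988499-79988598, plus strand: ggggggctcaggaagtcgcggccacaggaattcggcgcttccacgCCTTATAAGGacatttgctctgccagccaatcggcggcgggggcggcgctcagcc
Myl9, chr2:156775258-156775357, plus strand: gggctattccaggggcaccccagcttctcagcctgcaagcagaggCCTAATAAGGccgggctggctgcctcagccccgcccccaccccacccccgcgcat
The boxes begin 73, 47, 56 and 161 bases before the starts of Acta1, Actc1, Cnn2 and Myl9. A match is a description of these letters and not evidence of binding.

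Several collagens and other stromal genes were high in replicate 1 at days 0 and 1. Of 28 listed fibroblast and stroma genes, 25 passed the filter; 9 were past 4-fold higher in replicate 1 at day 0, 6 at day 1, 2 at day 2 and 0 at day 7, while 1, 1, 2 and 1 were lower. In the replicate 1 slope 13 of the 25 fell and 1 rose; in replicate 2, 0 fell and 1 rose. Thbs1, thrombospondin, an adhesive glycoprotein induced by TGF-beta, had 176, 131, 20.3 and 0.592 CPM in replicate 1 and 1.45, 0.785, 0.522 and 0.674 CPM in replicate 2. Its slope in replicate 1 was -2.93 ± 0.46 (edgeR adjusted p = 0.00542). Col3a1, a fibrillar collagen, had 18.4, 10.0, 1.02 and 0.148 CPM in replicate 1 and at most 0.0746 CPM in replicate 2, with a replicate 1 slope of -2.48 ± 0.43 (edgeR adjusted p = 0.0078). Col1a1, the main fibrillar collagen of connective tissue, had 54.2, 123, 44.5 and 1.41 CPM in replicate 1 and 1.91, 2.32, 3.95 and 3.75 CPM in replicate 2. For these genes the series were apart at days 0 to 2 and within a few CPM of each other at day 7. Tnc, a matrix glycoprotein, had 24.0, 20.3, 2.89 and 0.037 CPM in replicate 1 and at most 0.0677 CPM in replicate 2, and it fell in replicate 1 (edgeR adjusted p = 0.0089). The ligand Tgfb2 had 23.5, 39.6, 7.49 and 2.39 CPM in replicate 1 and 0.44 to 1.41 CPM in replicate 2.

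Markers of fibroblasts did not all follow the collagens. Thy1, a surface marker, had 4.96, 3.43, 2.86 and 2 CPM in replicate 1 and 23.3, 16.7, 17.6 and 8.05 CPM in replicate 2. Pdgfrb, a receptor, had 5.63, 5.76, 7.9 and 18.6 CPM in replicate 1 and 4.13, 12.1, 24.5 and 20.5 CPM in replicate 2. Dcn, decorin, reached 0.301 CPM in replicate 1 and 0.0392 CPM in replicate 2, and Lum, lumican, reached 0.1 CPM in replicate 1 and had 0 counts in replicate 2. Ptprc, the pan-leukocyte marker, reached 0.167 CPM in replicate 1 and 0.0677 CPM in replicate 2. Over the whole fibroblast and stroma list the summed level was 2610, 3000, 2870 and 3330 CPM in replicate 1 and 1450, 2030, 2500 and 2950 CPM in replicate 2; Fn1, fibronectin, which embryonic stem cells express themselves, held 57.7% of that sum. The sum therefore does not show the course of the collagens.

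Several genes of simple epithelium were also higher in replicate 1 at days 0 and 1. Of 23 genes of simple epithelium, all of which passed the filter, 8 were past 4-fold higher in replicate 1 at day 0, 10 at day 1, 1 at day 2 and 0 at day 7, when 2 were past 4-fold lower. In replicate 1, 11 fell and 0 rose over the days; in replicate 2, 2 fell and 0 rose. Krt18, a keratin of simple epithelia (chr15:102028180-102032027), had 239, 559, 125 and 7.73 CPM in replicate 1 and 17.2, 30.9, 42.1 and 44.9 CPM in replicate 2. Its partner Krt8 (chr15:101996698-102004482) had 267, 568, 116 and 28.8 CPM in replicate 1 and 37.2, 75.2, 76.7 and 93.9 CPM in replicate 2. The order of the series was thus turned round at day 7, when replicate 2 held more of both keratins. Other keratins differed from this: Krt17 had 9.21, 6.48, 5.75 and 1.33 CPM in replicate 1 and 21.7, 13.7, 9.96 and 3.65 CPM in replicate 2. The replicate 1 slopes were -2.12 ± 0.59 for Krt18 and -1.41 ± 0.39 for Krt8 (edgeR adjusted p = 0.0415 and 0.0408). Cldn6, a tight junction protein, had 119, 142, 36.4 and 12.4 CPM in replicate 1 and 15.6, 8.48, 9.92 and 16.2 CPM in replicate 2, and it fell in replicate 1 (edgeR adjusted p = 0.0158). Anxa3, an annexin, had 80.0, 91.2, 16.0 and 2.77 CPM in replicate 1 and 9.17, 8.59, 5.63 and 4.64 CPM in replicate 2 (slope in replicate 1 with edgeR adjusted p = 0.00831).

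Several primitive streak and mesoderm genes were higher in replicate 1 at day 0. Of 30 listed genes, 29 passed the filter. Over all 30, 10 were past 4-fold higher and 2 lower at day 0, and 6 higher and 1 lower at day 1. At day 2 it was 1 in each direction, and at day 7 it was 2 higher and 1 lower. Over the days 7 of the 29 fell and 1 rose in replicate 1, and 2 fell and 0 rose in replicate 2. The list summed to 421, 502, 391 and 650 CPM in replicate 1 and 435, 531, 405 and 513 CPM in replicate 2. Tbx3, described below, held 54.3% of that sum. It was lower in replicate 1 at every day, with 3009 against 13354 counts at day 0. The sum therefore does not show the course of the genes that follow. T (Brachyury), the transcription factor of the primitive streak, had 113, 91.5, 11.4 and 34.7 CPM in replicate 1 and 0.203, 6.73, 2.54 and 3.88 CPM in replicate 2. T is also a target of Wnt signalling, and its slope in replicate 1 did not pass (-0.65 ± 0.43, edgeR adjusted p = 0.351). The Wnt ligand Wnt3 had 22.2, 32.5, 6.77 and 0.777 CPM in replicate 1 and 0.372, 2.24, 1.49 and 1.2 CPM in replicate 2. The ligand Wnt5a had 11.6, 10.0, 2.31 and 0.111 CPM in replicate 1 and 0.575, 0.196, 0.0746 and 0.112 CPM in replicate 2. Fgf8, a growth factor of the streak, had 14.4, 17.4, 2.05 and 0.481 CPM in replicate 1 and 0.304, 0.353, 1.08 and 0.712 CPM in replicate 2. All 3 ligands fell in replicate 1 (edgeR adjusted p = 0.0396, 0.0122 and 0.0227). Mixl1, a homeobox gene of the streak, had 7.22, 2.0, 0.469 and 0.647 CPM in replicate 1 and at most 0.53 CPM in replicate 2.

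Some formative genes, which mark the step out of naive pluripotency, fell in each series, and replicate 1 started with more of several of them. All 22 listed genes passed the filter; 8 were past 4-fold higher in replicate 1 at day 0, 3 at day 1, 6 at day 2 and 5 at day 7, with 2 lower at day 7 only. Over the days 9 fell in replicate 1 and 7 in replicate 2, and 0 rose in either. The list summed to 2660, 1570, 1330 and 1200 CPM in replicate 1 and 2470, 1370, 822 and 803 CPM in replicate 2. Fgf5, a growth factor of the early postimplantation epiblast, had 16.9, 0.673, 0.156 and 0 CPM in replicate 1 and 0.304, 0.0785, 0.0746 and 0 CPM in replicate 2. Unlike Acta2, it was already low at day 1. Its slope was -4.35 ± 0.32 in replicate 1 (edgeR adjusted p = 0.00156). Pou3f1, a POU factor of the formative epiblast, had 55.9, 6.16, 1.68 and 0.629 CPM in replicate 1 and 8.51, 2.39, 1.83 and 0.562 CPM in replicate 2, and it fell in both (edgeR adjusted p = 0.00174 in replicate 1 and 0.0276 in replicate 2). Lef1, a transcription factor of the Wnt pathway, kept its difference: it had 46.0, 27.1, 9.35 and 14.3 CPM in replicate 1 and 7.61, 2.94, 1.16 and 1.95 CPM in replicate 2.

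Replicate 2 held more of many primitive endoderm genes. All 30 listed genes passed the filter; 14 were past 4-fold lower in replicate 1 at day 0, 11 at day 1, 14 at day 2 and 12 at day 7, and 3, 2, 0 and 0 were past 4-fold higher. Their median log2 difference, replicate 1 minus replicate 2, was -1.41, -1.35, -1.80 and -1.73, so that, unlike for smooth muscle, it did not approach 0 at day 7. The whole list summed to 2820, 3810, 2610 and 2710 CPM in replicate 1 and 3090, 3180, 3680 and 3850 CPM in replicate 2, with 1500 to 2880 CPM in RNAPII-mut libraries; laminin and protease genes that other cells express lead this sum. In replicate 2, 5 of the 30 fell and 0 rose over the days. In replicate 1, 9 fell and 5 rose.

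Gata6, the transcription factor that starts primitive endoderm, had 1.24, 1.65, 0.665 and 0.296 CPM in replicate 1 and 28.2, 8.51, 6.27 and 4.61 CPM in replicate 2. It fell in replicate 2, with a slope of -0.85 ± 0.20 (edgeR adjusted p = 0.0446). Sox17, a SOX factor that acts after Gata6, had 0.368, 0.202, 0.508 and 0.259 CPM in replicate 1 and 8.73, 13.3, 8.95 and 9.66 CPM in replicate 2. Its replicate 2 slope was -0.01 ± 0.20 (edgeR adjusted p = 0.977). The RNAPII-mut libraries lay at 0.401 to 0.703 CPM for Gata6 and 0.0462 to 0.768 CPM for Sox17, so that replicate 2 was above every other library for both factors at all 4 days. Gata4, the third factor, had 3.52, 4.9, 5.12 and 6.18 CPM in replicate 1 and 31.9, 23.5, 24.2 and 21.3 CPM in replicate 2, with a replicate 2 slope of -0.18 ± 0.10 (edgeR adjusted p = 0.259).

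Other endoderm genes fell in replicate 2. Cubn, cubilin, an endocytic receptor of visceral endoderm, had 0.536, 0.404, 0.196 and 0.037 CPM in replicate 1 and 41.1, 9.26, 8.06 and 1.09 CPM in replicate 2, so that day 7 held 2.64% of the day 0 level in replicate 2. Its replicate 2 slope was -1.69 ± 0.18 (edgeR adjusted p = 0.00676). Cubn also fell in replicate 1, from a far lower level (slope -1.15, edgeR adjusted p = 0.0179). Dab2, an endocytic adaptor of the same cells, had 12.9, 9.53, 4.77 and 1.07 CPM in replicate 1 and 53.2, 18.5, 16.9 and 6.18 CPM in replicate 2, and it fell in both (edgeR adjusted p = 0.00354 in replicate 1 and 0.0138 in replicate 2). Sox7, a SOX factor of this lineage, had 0.469, 0.505, 0.156 and 0.074 CPM in replicate 1 and 10.3, 3.61, 2.87 and 1.42 CPM in replicate 2 (slope in replicate 2 with edgeR adjusted p = 0.0388). Pdgfra, a receptor and a common surface marker of primitive endoderm, had 1.27, 2.53, 1.41 and 1.26 CPM in replicate 1 and 26.6, 11.8, 9.48 and 10.2 CPM in replicate 2, with a slope that did not pass (edgeR adjusted p = 0.15).

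For 4 secreted and matrix genes of this lineage no slope passed in replicate 2. Col4a1 (chr8:11198423-11312826) and Col4a2 (chr8:11312805-11449287), neighbours on opposite strands that encode the collagen chains of basement membrane, had 285, 269, 294 and 308 CPM and 143, 133, 170 and 178 CPM in replicate 2. In replicate 1, which held them at days 0 and 1 as well, Col4a1 had 126, 154, 39.3 and 13.1 CPM and Col4a2 had 84.5, 104, 23.8 and 6.95 CPM. The gap between the series thus widened with time, with log2 differences for Col4a1 of -1.18, -0.81, -2.89 and -4.51. Both fell in replicate 1 (edgeR adjusted p = 0.0089 and 0.00928), and neither passed in replicate 2 (edgeR adjusted p = 0.904 and 0.728). Srgn, the proteoglycan serglycin, had 0.201, 0.135, 0.508 and 2.79 CPM in replicate 1 and 19.4, 14.9, 21.7 and 16.9 CPM in replicate 2; it rose in replicate 1 (slope 1.46 ± 0.21, edgeR adjusted p = 0.00466) and had an edgeR adjusted p of 0.932 in replicate 2. Lama1, a laminin chain of basement membrane, had 44.7, 98.6, 199 and 329 CPM in replicate 1 and 270, 292, 388 and 452 CPM in replicate 2, and it rose in replicate 1 (slope 0.97 ± 0.11, edgeR adjusted p = 0.00177; 0.133 in replicate 2). For Srgn and Lama1 replicate 1 was below replicate 2 at every day, and the gap was smallest at day 7. Of 25 listed visceral and parietal endoderm genes, 24 were in the count table and 21 passed the filter. Over the 24, 1, 2, 7 and 4 were past 4-fold lower in replicate 1 at days 0, 1, 2 and 7. In the same order, 3, 1, 1 and 0 were higher. Trf, transferrin, had 6.03, 2.39, 2.93 and 4.18 CPM in replicate 1 and 21.4, 6.2, 13.5 and 17.7 CPM in replicate 2. The secreted proteins Afp and Ttr stayed low: Afp reached 0.067 CPM in replicate 1 and 0.0392 CPM in replicate 2, and Ttr reached 0.067 CPM in replicate 1 and 0.56 CPM in replicate 2.

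**Figure D3:**
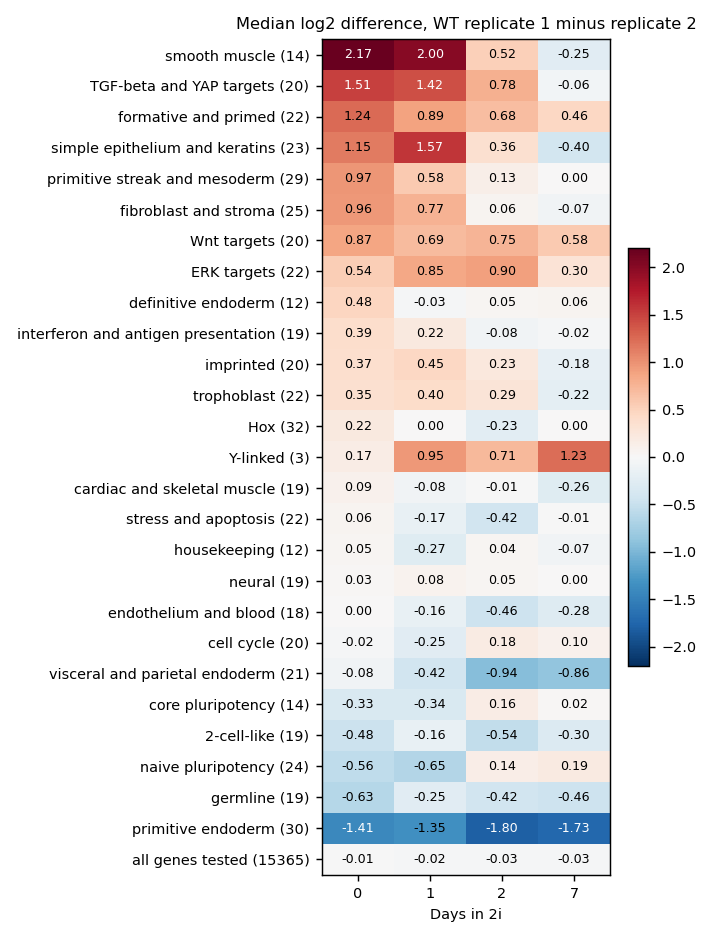
Median log2 difference of each gene list (rows), replicate 1 minus replicate 2, by days in 2i (columns). Red is higher in replicate 1 and blue is higher in replicate 2. Brackets give the members that passed the filter, but the list medians also take in members of the count table that failed it. The smooth muscle row runs from 2.17 at day 0 to -0.25 at day 7, and the primitive endoderm row stays between -1.80 and -1.35.

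WT cells were also compared with RNAPII-mut cells, averaging the 4 days. The lists and genes were chosen with earlier results of these data known, and the same WT libraries enter this average. Counts and p-values of this comparison are therefore no separate support for the differences between the series. They describe how far the lineage genes set the WT average apart from the mutant. Of all genes, 1151 (7.49%) were higher and 822 (5.35%) lower in WT at adjusted p under 0.05, or 12.8% in all. Of 30 primitive endoderm genes, 19 were higher in WT and 0 lower, with a median log2 difference of 1.82 against 0.03 over all genes. Leaving out each library in turn gave between 13 and 23, and leaving out the replicate 1 libraries of days 0 and 1 together gave 25. Of 25 fibroblast and stroma genes 12 were higher and 0 lower, and of 14 smooth muscle genes 5 were higher and 0 lower. Without the replicate 1 libraries of days 0 and 1 these became 7 and 1; over single left-out libraries of either genotype they ranged from 6 to 14 and from 1 to 8. With a term for replicate number in WT, the count over all genes was 1779 higher and 1598 lower. Without single RNAPII-mut libraries of days 0, 2 or 7 the total of 1973 calls became 1118 to 1264.

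Single genes show how far 1 series can carry such a call. Gata6 was 3.29 ± 0.70 higher in WT (SE, log2; edgeR adjusted p = 0.00973), Sox17 4.25 ± 0.98 (edgeR adjusted p = 0.0148, past the threshold in 18 of 24 alternatives) and Pdgfra 2.58 ± 0.61 (edgeR adjusted p = 0.0161), although for Sox17 and Pdgfra the replicate 1 libraries lay within or near the RNAPII-mut range, which for Pdgfra was 0.682 to 2.34 CPM. Foxq1, a forkhead factor, was 3.92 ± 0.63 higher in WT (edgeR adjusted p = 0.00227). Acta2 passed as well, at 5.32 ± 1.5 (edgeR adjusted p = 0.035), with all of its WT counts above the mutant range coming from replicate 1 at days 0, 1 and 2; it missed the threshold in 15 of 24 alternatives. Krt19, a keratin, was 2.96 ± 0.42 higher in WT (edgeR adjusted p = 0.00111) and passed in all 24 alternatives, with 76.4, 140, 26.6 and 17.6 CPM in replicate 1, 13.8, 15.9, 21.7 and 32.2 CPM in replicate 2, and 2.59 to 11.5 CPM in RNAPII-mut libraries. Both series of WT were thus above every mutant library for Krt19, whereas for Acta2, at days 0 to 2, and for Sox17 a single series was.

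Naive pluripotency genes had a lower summed level in replicate 1 than in replicate 2, while their median difference was below 0 at days 0 and 1 only. All 24 naive genes passed the filter and summed to 4760, 5770, 8860 and 10000 CPM in replicate 1, against 7020, 9860, 10700 and 10600 CPM in replicate 2, so that the gap was largest at day 1 and smallest at day 7. Dppa5a held 26.9% of the sum over the WT libraries. The median log2 difference of the list was -0.56, -0.651, 0.135 and 0.193 at days 0, 1, 2 and 7. At days 2 and 7 the sum therefore does not show the course of the typical naive gene. Over the days 9 rose and 0 fell in replicate 1, and 2 rose and 2 fell in replicate 2. Of 14 core pluripotency genes, all tested, 0 rose and 2 fell in replicate 1, and 0 rose and 4 fell in replicate 2. Tbx3, a T-box factor of the naive network, had 50.4, 106, 245 and 374 CPM in replicate 1 and 226, 368, 326 and 396 CPM in replicate 2; it rose in replicate 1 (slope 0.99 ± 0.14, edgeR adjusted p = 0.00348). Klf4, a Kruppel-like factor downstream of LIF, had 121, 180, 299 and 537 CPM in replicate 1 and 182, 273, 258 and 367 CPM in replicate 2, and it rose in both (edgeR adjusted p = 0.00172 in replicate 1 and 0.0486 in replicate 2, which missed the threshold in 11 of 16 alternatives). Tfcp2l1, another factor of the naive network, had 245, 558, 992 and 1140 CPM in replicate 1 and 308, 1000, 1020 and 1150 CPM in replicate 2. Replicate 2 was near its day 7 level of this gene by day 1, and replicate 1 was not until day 2.

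**Figure D4:**
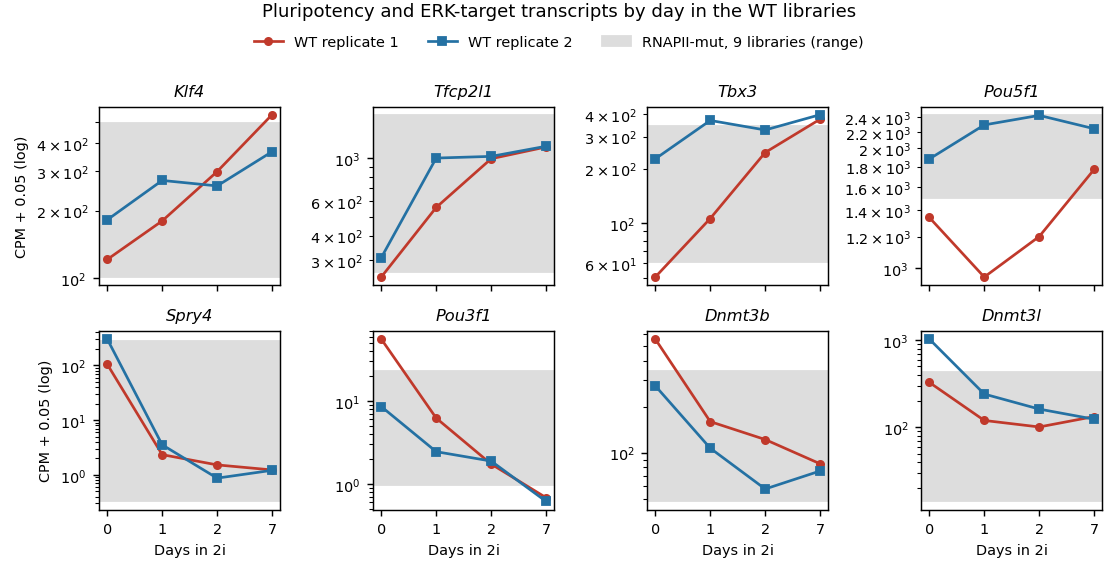
Levels of 8 pluripotency, formative and ERK-target genes (CPM + 0.05, log y axis) by days in 2i (x), with replicate 1 in red, replicate 2 in blue and the range of RNAPII-mut libraries in grey. Klf4, Tfcp2l1 and Tbx3 start lower in replicate 1 and are near or above replicate 2 at day 7, and Spry4 is near 1 CPM in both series at day 7.

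Some targets of ERK fell in each series in 2i, which holds both inhibitors. By their own slopes 8 of 22 fell in replicate 1 and 7 in replicate 2, and 0 rose. Taking both as replicates of a day, 1017 genes (6.62%) were higher and 938 (6.1%) lower at day 7 than at day 0, or 12.7% in all. That count of 1955 was 830, 771 or 962 without the replicate 1 library of day 0, the replicate 1 library of day 7 or the replicate 2 library of day 7, and 4007 with a term for replicate number. Of 22 ERK targets 11 were lower at day 7 and 0 higher. Without the same single libraries the count was 7, 5 or 6, and it was 1 when the 8 WT libraries were fitted alone. Spry4, a feedback inhibitor of the pathway, had 105, 2.29, 1.47 and 1.18 CPM in replicate 1 and 303, 3.49, 0.821 and 1.16 CPM in replicate 2. It was -7.44 ± 1.21 at day 7 minus day 0 (log2, SE; edgeR adjusted p = 0.00296). Dusp4, a phosphatase that acts on ERK, had 95.0, 18.9, 8.23 and 0.869 CPM in replicate 1 and 46.2, 2.96, 2.26 and 0.993 CPM in replicate 2 (edgeR adjusted p = 0.00317). Dnmt3b, a de novo DNA methyltransferase, had 558, 160, 122 and 84.5 CPM in replicate 1 and 275, 107, 57.7 and 75.8 CPM in replicate 2 (edgeR adjusted p = 0.00703). Spry4 was thus already low at day 1 in both series, at a time when Acta2, Tagln and Krt18 in replicate 1 were at their highest.

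Egr1 and Fos, immediate-early genes that answer to ERK and to serum, differed between the series. Egr1, a zinc-finger factor, had 77.3, 182, 95.1 and 40.9 CPM in replicate 1 and 30.6, 4.51, 0.821 and 1.2 CPM in replicate 2; it fell in replicate 2 (edgeR adjusted p = 0.0335). Fos, a subunit of AP-1, had 48.1, 110, 18.1 and 11.8 CPM in replicate 1 and 3.76, 2.67, 3.02 and 3.82 CPM in replicate 2. Replicate 1 was the higher at every day for both genes. Over the RNAPII-mut libraries Egr1 ranged from 0.727 to 162 CPM and Fos from 1.31 to 27.5 CPM.

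Some genes of the integrated stress response, which ATF4 drives when amino acids run short, were higher in replicate 2 at every day. Of 22 stress and apoptosis genes, all of which passed the filter, 2, 4, 4 and 2 were past 4-fold lower in replicate 1 at days 0, 1, 2 and 7 and 0 were higher, with a median log2 difference of 0.06, -0.17, -0.42 and -0.01. Chac1, which degrades glutathione, had 4.97, 3.92, 11.3 and 10.4 CPM in replicate 1 and 33.9, 40.1, 83.6 and 78.9 CPM in replicate 2. Pck2, the mitochondrial phosphoenolpyruvate carboxykinase, had 16.0, 17.9, 45.5 and 78.3 CPM in replicate 1 and 88.6, 139, 343 and 393 CPM in replicate 2, and it rose in both (slopes 0.81 ± 0.16 and 0.76 ± 0.17, edgeR adjusted p = 0.0105 and 0.0354). Atf4 itself had 120, 102, 164 and 277 CPM in replicate 1 and 273, 438, 633 and 576 CPM in replicate 2. Atf3, another factor of this response, had 14.4, 34.1, 13.6 and 3.18 CPM in replicate 1 and 4.3, 12, 15 and 19 CPM in replicate 2, so that replicate 1 was the higher at days 0 and 1. The RNAPII-mut libraries had 10.9 to 76.4 CPM of Chac1. Of the 12 genes with the most stable excess in replicate 2, 10 had an entry in the promoter table, and 3 (30%) held TGATGNAA, a form of the element that ATF4 binds with C/EBP factors, on either strand of the 250 bases before the start, against 3.91% of all symbols. These 3 were Chac1, Pck2 and Srgn. Of 19 stress and apoptosis genes with an entry, 2 (10.5%) held the element, Atf3 and Chac1. For Chac1 and Pck2 the match, in capitals, lies on the strand opposite to the gene and begins 193 and 103 bases before the start.
Chac1, chr2:119351004-119351101, plus strand: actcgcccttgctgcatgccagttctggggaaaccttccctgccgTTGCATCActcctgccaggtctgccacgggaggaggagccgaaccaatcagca
Pck2, chr14:55540118-55540215, plus strand: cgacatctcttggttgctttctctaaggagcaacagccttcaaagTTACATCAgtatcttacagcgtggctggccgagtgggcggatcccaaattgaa
These 12 genes were picked for their difference between the series, so their share describes them and carries no test.

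Further genes kept a difference at all 4 days. Sulf1, a heparan sulfatase, had 107, 88.7, 54.7 and 29.6 CPM in replicate 1 and 23.2, 21.3, 7.91 and 5.92 CPM in replicate 2. Jag1, a Notch ligand, had 39.0, 39.4, 44.9 and 39.7 CPM in replicate 1 and 11.8, 12.7, 7.8 and 9.48 CPM in replicate 2. Gad1, glutamate decarboxylase, had 13.2, 18.6, 18.5 and 14.6 CPM in replicate 1 and 0.981, 4.87, 2.61 and 2.62 CPM in replicate 2. These genes are of no common lineage, and none of their ranges overlapped between the series. In the opposite direction, Ceacam20, a cell adhesion molecule, had 1.16, 0.673, 1.06 and 1.07 CPM in replicate 1 and 14.6, 7.36, 9.76 and 12.4 CPM in replicate 2, and Smc1b, a meiotic cohesin subunit, had 0.938, 1.08, 1.02 and 1.07 CPM in replicate 1 and 13.4, 6.24, 10.5 and 9.14 CPM in replicate 2. Averaged over both series, Ceacam20 and Smc1b were also higher in WT than in RNAPII-mut libraries (edgeR adjusted p = 0.00458 and 0.0132). Both are described here for their excess in replicate 2, so these p-values are no separate support. In replicate 1 they had 40 to 69 and 52 to 64 counts, inside the RNAPII-mut ranges of 0 to 81 and 14 to 66 counts.

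Other genes parted from each other over time. Gpnmb, a transmembrane glycoprotein, had 2.01, 3.03, 3.25 and 6.95 CPM in replicate 1 and 1.62, 4.34, 12.9 and 55.1 CPM in replicate 2; it rose in replicate 2 (slope 1.73 ± 0.13, edgeR adjusted p = 0.00188). Pitx1, a homeobox gene, had 0.536, 0.438, 0.43 and 0.407 CPM in replicate 1 and 0.203, 1.33, 3.54 and 14.8 CPM in replicate 2; it rose in replicate 2 (slope 1.98 ± 0.22, edgeR adjusted p = 0.00676). Both series started at similar levels of these genes and ended apart. Cyp26a1, which degrades retinoic acid (chr19:37697798-37701536), was the gene whose slopes differed: it had 10.4, 0.909, 0.352 and 0.074 CPM in replicate 1 and 0.609, 1.57, 3.36 and 6.27 CPM in replicate 2. The slope was -2.58 ± 0.27 in replicate 1 and 1.12 ± 0.24 in replicate 2, and their difference was -3.69 ± 0.36 (edgeR adjusted p = 0.0235). It missed the threshold in 6 of 16 alternatives, with adjusted p from 3.5e-14 to 0.436 over all of them. Igf2, an imprinted growth factor, had 181, 269, 127 and 3.92 CPM in replicate 1 and 36, 48.4, 34.1 and 19.2 CPM in replicate 2, and it fell in replicate 1 (edgeR adjusted p = 0.0459). The immunoproteasome subunit Psmb8 had 20.8, 6.97, 2.11 and 0.185 CPM in replicate 1 and at most 0.118 CPM in replicate 2 (slope in replicate 1 with edgeR adjusted p = 0.00172).

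Not every difference between the series belonged to a lineage. The 505 genes of chromosome 15 had a median log2 difference, replicate 1 minus replicate 2 and centred on all genes, of -0.46, -0.51, -0.46 and -0.41 at days 0, 1, 2 and 7, and 80.2, 75.6, 73.1 and 74.7% of them lay below the median of all genes. The median ratio of replicate 1 to replicate 2 was 0.727, 0.702, 0.73 and 0.751. Relative to the mean of the RNAPII-mut libraries, the chromosome 15 median was -0.01, -0.04, -0.03 and -0.02 in replicate 1 and 0.45, 0.47, 0.42 and 0.37 in replicate 2, so that replicate 2 lay apart from both. In the centred difference of replicate 1 minus replicate 2, chromosome 8 lay at -0.23, -0.25, -0.21 and -0.09, and X at 0.20, 0.37, 0.24 and 0.16. Relative to the RNAPII-mut mean, chromosome 8 lay at -0.49, -0.50, -0.47 and -0.43 in replicate 1. In replicate 2 it lay at -0.29, -0.25, -0.25 and -0.30, so both WT series were below the mutant there. The part of this shift in the comparison of WT with RNAPII-mut was not tested. Smc1b, described above, lies on chromosome 15, with log2 differences of -3.28, -2.10, -2.86 and -2.62. So does Adm2, a peptide hormone gene, which had 0.402, 0.236, 0.665 and 1.48 CPM in replicate 1 and 6.94, 9.73, 16.5 and 17.8 CPM in replicate 2. Krt8 and Krt18, which were higher in replicate 1 at days 0 to 2, lie there too, against the direction of the chromosome.

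**Figure D5:**
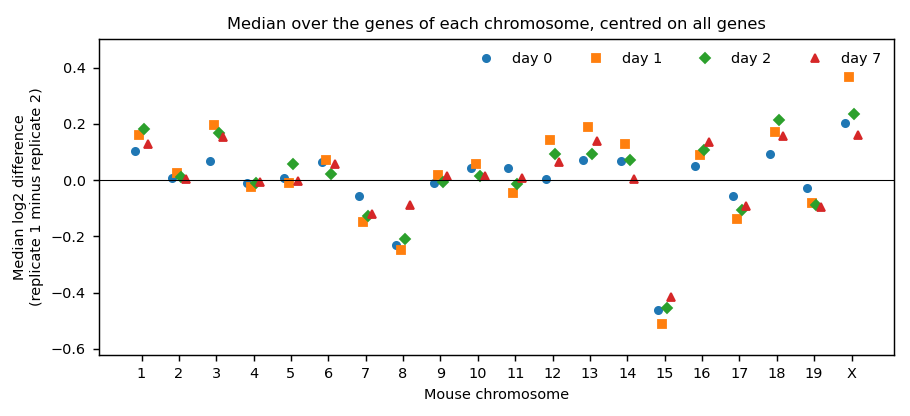
Median log2 difference, replicate 1 minus replicate 2, centred on all genes (y axis), over the genes of each chromosome (x axis), with a symbol per day. Chromosome 15 lies between -0.51 and -0.41 at all 4 days, and the other autosomes lie between -0.25 and 0.22.

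Y-linked transcripts differed as well once 2i was present. Ddx3y, a Y-linked RNA helicase, had 24.9, 37.6, 25.1 and 32.8 CPM in replicate 1 and 25.9, 13.8, 12.5 and 11.5 CPM in replicate 2, with at most 2.07 CPM in RNAPII-mut libraries. Uty, a Y-linked demethylase homologue, had 21.4, 21.1, 18.9 and 21.4 CPM in replicate 1 and 16.5, 8.93, 5.91 and 6.46 CPM in replicate 2. The series were close at day 0 and apart from day 1 on, and neither slope of either gene passed. Of the 3 Y-linked genes tested, 1, the translation factor gene Eif2s3y, rose in replicate 1, 0 passed in replicate 2, and the difference of slopes passed for 0. Eif2s3y had 69, 95.4, 90.7 and 125 CPM in replicate 1 and 61.1, 58.2, 66.2 and 63 CPM in replicate 2. A further value moved with the replicate 1 libraries of days 0 to 2: the 2158 genes of at least 100 kb had a median deviation of 0.24, 0.25, 0.21 and 0.05 (log2, from each gene's mean over all libraries) in replicate 1 and 0.09, -0.03, -0.09 and -0.04 in replicate 2. With offsets that remove this dependence, 309, 312, 95 and 22 genes were past 4-fold higher in replicate 1, close to the counts given above. The part of the chromosome 15 and Y-linked differences in the lineage differences was not tested.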

How the data were processed

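Total RNA of mouse embryonic stem cells was sequenced on the DNBSeq platform, per the labels' protocols. The authors deposited 1 table of raw read counts per gene, whole numbers without normalisation, for 20621 genes and 17 libraries; 2692 genes were at 0 in all. STAR, deepTools and mm10 are named per the submitters' processing notes; the counting tool, its strand setting and the annotation are not given in the sources used here, so overlapping and antisense genes may share counts. Gene positions are from GENCODE M21 on mm10, matched by symbol.

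Counts were analysed in edgeR 4.0.16 and limma 3.58.1 under R 4.3.3, with TMM normalisation, filterByExpr on groups of genotype and day, quasi-likelihood tests and Benjamini-Hochberg adjustment over 15365 genes, two-sided at 0.05. Day 7 against day 0 and WT against RNAPII-mut came from a fit of all 17 libraries with a coefficient per genotype and day (9 residual degrees of freedom, common biological coefficient of variation 0.333). Slopes on log2(day + 1) came from the 8 WT libraries with an intercept and a slope per replicate number (4 residual degrees of freedom, 0.251). The scripts were tested on simulated counts. Same-day differences between WT replicate 1 and WT replicate 2 were not tested; the difference of their slopes was. Totals ranged from 47350441 to 56138844 counts.

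Same-numbered libraries deviated together from their group means, at r over 0.1, in 6 of 6 WT pairs of days (r between 0.26 and 0.764). In RNAPII-mut 2 of 6 pairs did (r between -0.59 and 0.263). The number was therefore taken as a pairing in WT on the evidence of the data alone. The lowest WT value, for days 0 and 7, was no higher than the highest RNAPII-mut value. Alternatives were DESeq2 1.42.0, its size factors, no filter or a stricter one, offsets for gene length, the replicate block, leaving out WT replicate 1 of days 0 and 1, and leaving out each library. The members and lists were chosen with earlier results of these data known. Genes named are a fixed list, up to 4 members per list with the largest mean difference between the series, the 12 most stably different genes in each direction, and the 10 largest rises and falls per contrast, at 5 CPM or more; genes outside these were chosen after their values were seen.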

Additional observations from a re-analysis of the deposited data

Results flagged for a closer look

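Cyp26a1, which degrades retinoic acid, changed in opposite directions in the WT series: the difference of its slopes over days, replicate 1 minus replicate 2, was -3.69 ± 0.36 (SE, log2 per unit of log2(day + 1); edgeR adjusted p = 0.0235). It stood out because the difference itself was tested and passed. Its level was lower at each later day in replicate 1 and higher at each later day in replicate 2. The call missed the threshold in 6 of 16 alternatives, and the series themselves were inferred from these counts.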

How the results depend on the processing

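The calls depended on the tool and on single libraries; the cause was not tested. Day 7 against day 0 gave 1955 genes, against 3236 by DESeq2, 1240 without WT replicate 1 of days 0 and 1, 4007 with the replicate block in WT, 55 from the 8 WT libraries alone, and 771 to 2417 without single libraries. The slope in replicate 1 gave 2166 genes, against 17 without WT replicate 1 of days 0 and 1, which leaves 2 libraries in the series, and 15 to 2663 without single libraries. The slope in replicate 2 gave 882 genes, against 2380 by DESeq2, 1630 with all 17 libraries, 2011 on the rank of the day, and 0 to 1065 without single libraries. The difference of slopes gave 1 gene, against 395 by DESeq2, 5 without WT replicate 1 of days 0 and 1, 71 with all 17 libraries, and 0 to 188 without single libraries. WT against RNAPII-mut gave 1973 genes, against 3025 by DESeq2, 3377 with the replicate block, and 1118 to 2061 without single libraries. With a pseudocount of 2 CPM, 173, 172, 34 and 10 genes were past 4-fold higher in replicate 1 at days 0, 1, 2 and 7, and 58, 51, 46 and 29 lower; at all days 0 were higher and 4 lower. Of the tests quoted or considered for single genes, 89 of 100 passed, and 16 of these passed in every alternative. Without WT replicate 1 of days 0 and 1, the replicate 1 slopes of T and Mixl1 were 1.13 and 0.323. Without single libraries the replicate 2 slopes ranged from -0.18 to 0.094 for Sox17 and from -0.0636 to 0.0536 for Srgn, neither of which passed. At this depth 3 counts are at least 0.0502 CPM, so genes near that level could not be compared.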
